A study of Mus musculus with 8 samples.

Results

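The miR-181 family was measured as 6 precursors in myoblasts, the dividing muscle cells that fuse into fibres, from 4 old and 4 young C57BL/6J mice. Its members were chosen by name: every row of the 1181 miRNA precursors deposited that is listed as mmu-mir-181a-1, mmu-mir-181a-2, mmu-mir-181b-1, mmu-mir-181b-2, mmu-mir-181c or mmu-mir-181d (the species prefix is left off from here on). All 6 were found, and all 6 passed the filter on low values that kept 359 precursors for comparison (4 or more libraries with a linear value of 10 or above). Small RNA was sequenced, and the libraries are called old 1 to old 4 and young 1 to young 4. Their titles give a group and a number, read here as 1 mouse each, and do not exclude pools. The labels used here give no ages in days or months and no treatment, so the groups are known here only as old and young. The question the series raises is how miRNAs of muscle precursor cells differ with age.

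A miRNA is cut from a hairpin precursor as a short single-stranded RNA, and it lowers the output of messenger RNAs that pair with its seed, the bases near its 5′ end. The miR-181 family is conserved across vertebrates and is known from lymphocytes, where mouse miR-181a tunes the response of T cells to their antigen receptor, and from brain and muscle. In mouse myoblasts miR-181 rises during differentiation and has been reported to lower Hoxa11, a homeobox factor that restrains the myogenic program. In ageing muscle it has been linked to Sirt1, a deacetylase of metabolic and stress regulation.

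The family is shown first by its sequences, since they decide which of the 6 entries can be told apart. The mature 5p strands, from RefSeq's GRCm38.p6 table, read as follows, with the seed (bases 2 to 8) in capitals.
miR-181a-5p: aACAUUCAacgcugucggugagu
miR-181b-5p: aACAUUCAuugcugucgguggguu
miR-181c-5p: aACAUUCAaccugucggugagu
miR-181d-5p: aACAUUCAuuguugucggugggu
All 4 carry the seed ACAUUCA, and among 1679 mature mouse names in that table these 4 were the only ones with it. Counted from the 5′ end, miR-181b differed from miR-181a at 3 of 23 bases (A9U, C10U and A21G). miR-181d differed from miR-181b at 1 base (C12U), and miR-181c equalled miR-181a without base 11. The difference between miR-181b and miR-181d is small enough that a mapper allowing a mismatch could move reads between them, and the treatment of mismatches is not stated in the labels.

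The family lies in 3 paired loci, each with its members on the same strand. mir-181a-1 (chromosome 1, 137966455 to 137966541, plus strand, mm10) and mir-181b-1 (137966639 to 137966718) lie 97 bases apart, in exons of the long noncoding RNA A430106G13Rik and in an intron of Gm4258. mir-181a-2 (chromosome 2, 38852735 to 38852810, plus strand) and mir-181b-2 (38853830 to 38853918) lie 1019 bases apart, antisense to an intron of Nr6a1, a nuclear receptor gene. mir-181c (chromosome 8, 84178873 to 84178961, minus strand) and mir-181d (84178716 to 84178787) lie 85 bases apart in an intron of Nanos3, a gene known for its role in germ cells.

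mir-181a-1 and mir-181a-2 give the same mature 5p strand, and so do mir-181b-1 and mir-181b-2. Their hairpins are printed because the copies can be separated only outside that strand, which is in capitals.
mir-181a-1: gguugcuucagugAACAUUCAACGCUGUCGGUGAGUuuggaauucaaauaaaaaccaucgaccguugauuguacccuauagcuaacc
mir-181a-2: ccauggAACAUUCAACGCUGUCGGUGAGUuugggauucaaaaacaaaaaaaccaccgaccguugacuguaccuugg
mir-181b-1: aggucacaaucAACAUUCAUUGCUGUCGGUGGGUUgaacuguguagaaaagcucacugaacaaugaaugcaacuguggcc
mir-181b-2: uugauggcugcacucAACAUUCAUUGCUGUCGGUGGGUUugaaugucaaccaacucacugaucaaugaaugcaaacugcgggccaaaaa
The 3p strands do differ between copies, and the bases that differ are in capitals here.
miR-181a-1-3p: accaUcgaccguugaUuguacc
miR-181a-2-3p: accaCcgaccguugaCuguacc
miR-181b-1-3p: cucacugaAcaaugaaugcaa
miR-181b-2-3p: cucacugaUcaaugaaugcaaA
The copies of miR-181a-3p are set apart by U5C and U16C, and those of miR-181b-3p by A9U over the 21 bases compared. The deposited table gives 1 value per precursor and does not separate the strands.

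The libraries held 25.1 to 39.5 M reads if the deposited log2 values are read as reads per kilobase of precursor and per M library reads, which their steps follow. With the worth of 1 read fitted per library, the low values, up to 12 reads, fell on whole reads within 0.1 of a read in 100% of cases (109 to 206 values per library). mir-206 and mir-133a-1, muscle miRNAs that mark the labelled cell type, lay between 14.78 and 16.52 and between 11.91 and 14.92 on the log2 scale. The mir-1 and mir-208a precursors, also listed for muscle, did not pass the filter on low values. Blood cells, in which miR-181 is also abundant, were checked by their defining miRNAs. mir-142, mir-223 and mir-144 were listed at 0 in every library, mir-451a was between 0 and 0.89, and mir-150, a lymphocyte miRNA, was between 1.04 and 4.47.

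miR-181a dominated the family. mir-181a-2 and mir-181a-1 ranked 6 and 8 by mean level among the 359 compared precursors, mir-181b-1 and mir-181b-2 ranked 38 and 39, and mir-181d and mir-181c ranked 69 and 70. On the log2 scale the means over the 8 libraries were 18.19, 17.97, 13.73, 13.67, 12.18 and 12.15 in that order. With each copy pair entered once as its mean and values turned into reads, miR-181a made up 89.6% to 93.5% of the family's reads in the 8 libraries. miR-181b made up 3.66% to 6.63%, miR-181c 1.06% to 2.28% and miR-181d 1.05% to 1.85%. The shares hold if shared reads are listed under both copies. If they are divided between copies, copies would have to be summed, and the shares of miR-181c and miR-181d would be lower. Both miR-181a entries lay above both miR-181b entries, and these above mir-181c and mir-181d, in 8 of 8 libraries. mir-181c and mir-181d did not keep an order: mir-181c was the higher in 4 of 8 libraries, with differences from -0.28 to 0.31. Behind these levels stood 0.42 to 1.24 M reads for each mir-181a entry, 0.0224 to 0.0745 M for each mir-181b entry and 0.00693 to 0.0212 M for mir-181c and mir-181d. At the lowest of these depths counting error is 1.2% of the value, so the spread between libraries is much larger than it.

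**Figure D1:**
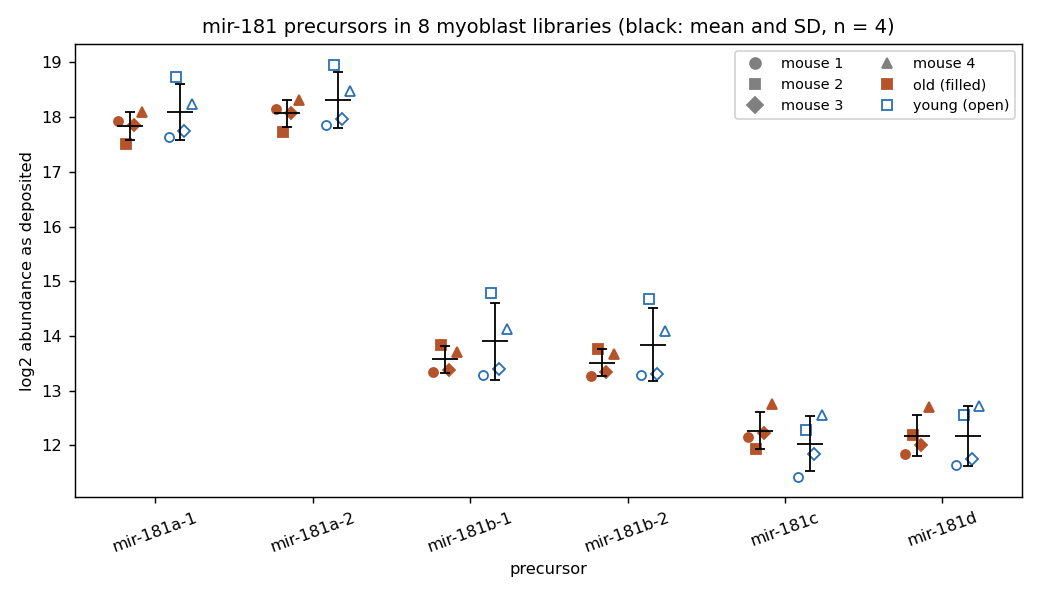
Deposited log2 abundance (y axis) of the 6 mir-181 precursors (x axis) in each library, with old mice filled and young mice open, marker shape giving the mouse number, and black bars giving mean and SD of 4 libraries. The mir-181a entries sit between 17.5 and 18.96, the mir-181b entries between 13.26 and 14.79, and mir-181c and mir-181d between 11.43 and 12.75, with old and young points overlapping for every precursor.

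miR-181a, the most abundant member, had a slightly lower mean in old myoblasts, by less than the spread between libraries. mir-181a-1 measured 17.92, 17.5, 17.86 and 18.1 in old mice 1 to 4 and 17.64, 18.74, 17.74 and 18.24 in young mice 1 to 4. Young 2 was the highest library and old 2 the lowest, and old 1, old 3 and old 4 lay inside the range of the young ones. The old libraries averaged 17.84 ± 0.25 and the young ones 18.09 ± 0.51 (SD, n = 4 each). Old minus young was -0.245 in log2 (SE 0.31, 95% interval -0.95 to 0.46). As a linear ratio, old libraries held 0.844 times the young level, with an interval from 0.517 to 1.38 (limma p = 0.455 and adjusted p = 0.995, exact permutation p = 0.457, two-sided). mir-181a-2 measured 18.14, 17.73, 18.08 and 18.32 in the old mice and 17.85, 18.96, 17.97 and 18.47 in the young ones. Its difference was the same -0.245, and it is in effect the same measurement, since the copies share nearly all reads.

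miR-181b, the neighbour of miR-181a at 2 of the 3 loci, also had a lower mean in old myoblasts, within the spread between libraries. mir-181b-1 measured 13.34, 13.84, 13.38 and 13.71 in old mice 1 to 4 and 13.29, 14.79, 13.39 and 14.13 in young mice 1 to 4. Young 2 again stood highest, while old 2, the lowest library for miR-181a, was the highest of the old libraries here. Old libraries averaged 13.57 ± 0.25 and young ones 13.9 ± 0.7 (SD, n = 4 each). Old minus young was -0.33 in log2 (SE 0.38, 95% interval -1.18 to 0.51; limma p = 0.398 and adjusted p = 0.995, exact permutation p = 0.486, two-sided). mir-181b-2 measured 13.26, 13.77, 13.34 and 13.67 in the old mice and 13.28, 14.67, 13.31 and 14.09 in the young ones. Its difference was -0.33 (SE 0.37) at the same adjusted p. For the miR-181a and miR-181b entries the young SD, 0.51 to 0.7, was larger than the old SD of 0.25 for each, and young 2 set the upper end. Without young 2 the differences were -0.03 for each mir-181a entry, -0.04 for mir-181b-1 and -0.05 for mir-181b-2.

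mir-181c and mir-181d, the chromosome 8 pair, did not share the lower mean in old libraries. mir-181c measured 12.16, 11.94, 12.23 and 12.75 in old mice 1 to 4 and 11.43, 12.28, 11.84 and 12.56 in young mice 1 to 4. Old 4 was the highest and young 1 the lowest, and the groups overlapped. Old libraries averaged 12.27 ± 0.34 and young ones 12.03 ± 0.5 (SD, n = 4 each). Old minus young was 0.24 in log2 (SE 0.34, 95% interval -0.52 to 1.01; limma p = 0.495 and adjusted p = 0.995, exact permutation p = 0.457, two-sided). mir-181d measured 11.85, 12.19, 12 and 12.7 in the old mice and 11.65, 12.56, 11.76 and 12.72 in the young ones. It averaged 12.18 ± 0.37 and 12.17 ± 0.55 (SD, n = 4 each), a difference of 0.01 (SE 0.36, 95% interval -0.79 to 0.81; limma adjusted p = 0.995, exact permutation p = 1.0, two-sided). Old 4 and young 4 held the upper values of mir-181d and young 1 and young 3 the lowest. The old values, from 11.85 to 12.7, lay inside the young range of 11.65 to 12.72. Leaving out 1 library moved the difference of mir-181c from 0.04 (without young 1) and 0.08 (without old 4) up to 0.42 (without young 4).

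Of the 6 precursors 4 had a lower and 2 a higher mean in old libraries, and 0 passed an adjusted p of 0.05 in limma. Over all 359 precursors 0 passed (0.0%), 4 had an unadjusted p under 0.05 (1.11%, against 0 of the 6) and 3 had groups that did not overlap (0.836%, against 0 of the 6). Lower means in old libraries were seen for 54.0% of all precursors and higher ones for 46.0%, with a median difference of -0.05 over all and -0.24 over the 6. Since the 6 entries hold 4 mature sequences and share libraries, their signs are not separate observations. mir-431, the miRNA of the series title, differed by -1.81 (SE 1.15; limma adjusted p = 0.995), against SEs of 0.31 to 0.38 for the 6.

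**Figure D2:**
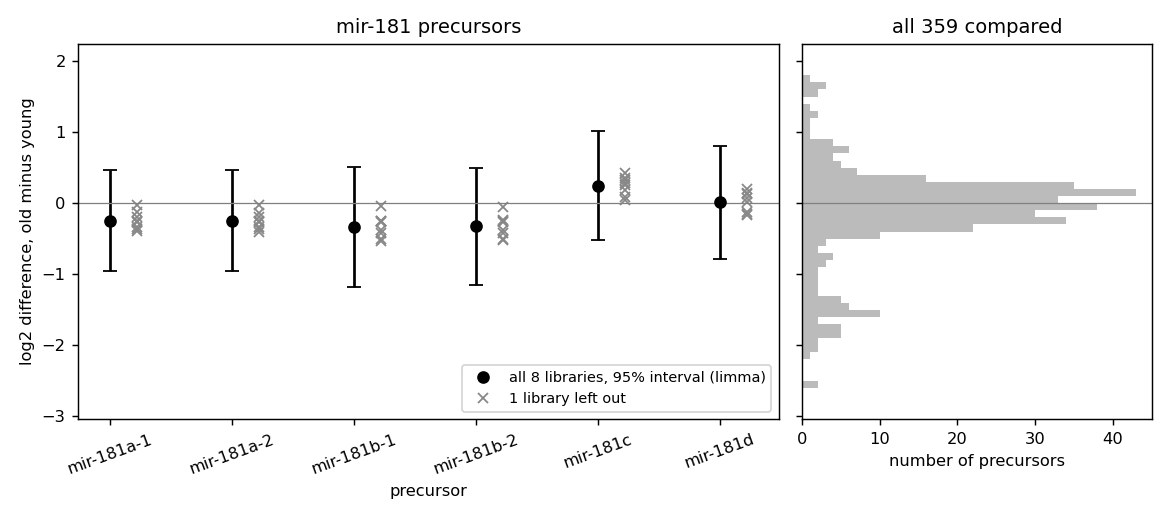
Left, the log2 difference old minus young (y axis) of each mir-181 precursor (x axis) with its 95% interval from limma over 8 libraries, and beside it as crosses the 8 values with 1 library left out. Right, the same difference over all 359 compared precursors as a count per bin. Every interval of the 6 spans 0, and their differences, from -0.33 to 0.24, lie within the bulk of all precursors.

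The copies were compared to see how far mir-181a-1 and mir-181a-2, or mir-181b-1 and mir-181b-2, can be read as separate precursors. The value of mir-181a-2 exceeded that of mir-181a-1 by 0.21 to 0.23 in log2 throughout the 8 libraries, where their lengths of 87 and 76 bases alone would give 0.2. Turned into reads, mir-181a-2 held 1.04% to 2.45% more than mir-181a-1. With the rounding of the deposited logs (0.01 in all) the excess in a library could lie anywhere from 0.346% to 3.17%. mir-181b-2 held 2.37% to 10.5% more reads than mir-181b-1 (1.66% to 11.3% with rounding). The lowest excess of mir-181b-2 was in young 2 and the highest in young 1. Both excesses stayed above 0 in 8 of 8 libraries when that rounding was allowed for. The bulk of each copy's value therefore equals that of its partner, as listing the shared reads under both names or dividing them evenly would give, and these cannot be told apart here. Which strand the excess reads come from was not tested, since the table does not separate strands.

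Over the libraries, copies ran closely parallel, and mir-181c and mir-181d were nearest to each other within the family. The distance between 2 precursors was taken as the SD over the 8 libraries of their log2 difference, so that 0 means parallel values. Nearest to mir-181a-1 among 358 others was its copy mir-181a-2 (SD 0.00707), and nearest to mir-181b-1 its copy mir-181b-2 (SD 0.0342), as shared reads give. The neighbour in the same locus came at rank 10 for mir-181a-1 (mir-181b-1, SD 0.306) and at rank 8 for mir-181a-2 (mir-181b-2, SD 0.293). mir-181b-2, on the other chromosome, was at rank 8 from mir-181a-1 (SD 0.297). The mir-181b copies share most of their reads, so the order of these 2 cannot show whether levels follow the locus. mir-181d was at rank 11 from mir-181c, and mir-181c at rank 21 from mir-181d (SD 0.229). mir-181b-1 was farther from mir-181c (SD 0.504, rank 69) than from mir-181d (SD 0.344, rank 19), the member whose mature strand differs from its own by 1 base. These ranks are a description of 8 libraries that share their scaling, and shared reads between near-identical strands cannot be told apart from shared levels.

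**Figure D3:**
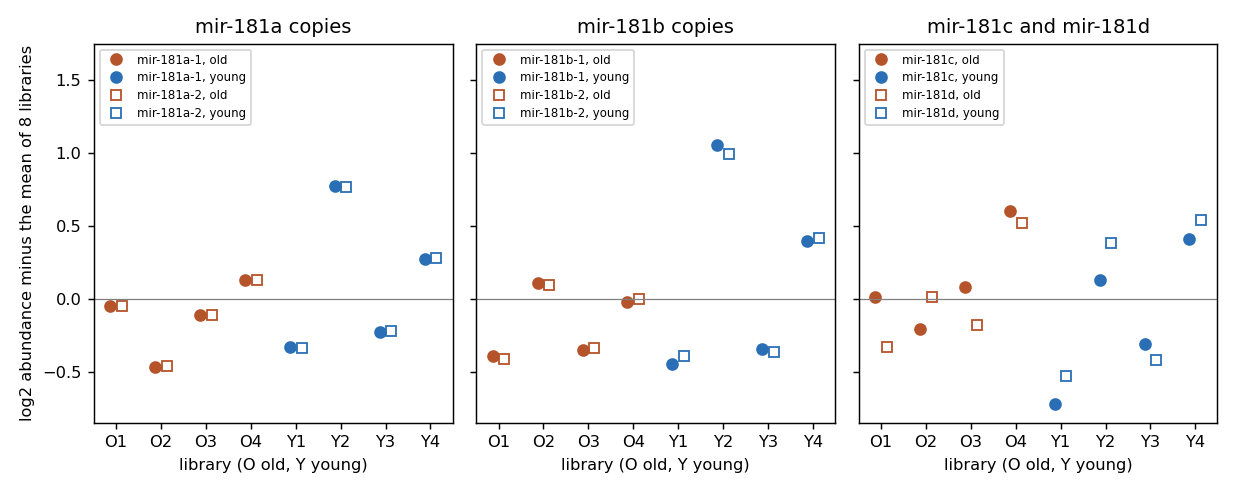
Log2 abundance of each mir-181 precursor minus its mean over the 8 libraries (y axis), by library (x axis, O for old and Y for young), with the members of a pair as filled circles and open squares. The copies of mir-181a and of mir-181b nearly coincide, Y2 stands highest for both, O2 is lowest for mir-181a but not for mir-181b, and Y1 is lowest for mir-181c and mir-181d.

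Within a library, miR-181a and miR-181b of a locus kept a distance of about the same size in both age groups. mir-181a-1 exceeded mir-181b-1 by 4.58, 3.66, 4.48 and 4.39 in old mice 1 to 4 and by 4.35, 3.95, 4.35 and 4.11 in young mice 1 to 4 on the log2 scale. Old 2 had the smallest distance and the other 3 old libraries the largest ones, so the young values lay inside the old range. The means were 4.28 ± 0.42 and 4.19 ± 0.2 (SD, n = 4 each). On chromosome 2 the distance of mir-181a-2 from mir-181b-2 was 4.56 ± 0.41 in old and 4.47 ± 0.17 in young libraries, with old 2 again the smallest at 3.96. In old 2 miR-181b accordingly took 6.63% of the family's reads and miR-181a 89.6%, the highest and the lowest share among the 8 libraries.

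The chromosome 8 members were also set against miR-181a and miR-181b within each library. mir-181a-2 exceeded mir-181c by 5.98, 5.79, 5.85 and 5.57 in old mice 1 to 4 and by 6.42, 6.68, 6.13 and 5.91 in young mice 1 to 4. Only young 4 fell below an old library, old 1, so the groups overlapped by that pair. The means were 5.8 ± 0.17 and 6.29 ± 0.34 (SD, n = 4 each). mir-181b-1 exceeded mir-181c by 1.18, 1.9, 1.15 and 0.96 in old mice 1 to 4 and by 1.86, 2.51, 1.55 and 1.57 in young mice 1 to 4, with means of 1.3 ± 0.41 and 1.87 ± 0.45. Old 2 lay among the young values and the other 3 old libraries below all of them. mir-181b-1 exceeded mir-181d by 1.38 ± 0.27 in old and 1.73 ± 0.35 in young mice, and the groups overlapped. No test was made of any of the 8 differences computed within the family (2 between copies, 3 within loci and 3 between loci), since they were chosen with the values known. Shares of the family's reads were again taken with copies entered as their mean. miR-181c made up 1.96 ± 0.226% in old and 1.43 ± 0.325% in young libraries, while miR-181d made up 1.52 ± 0.348% and 1.27 ± 0.251%. mir-181c minus mir-181d was 0.31, -0.25, 0.23 and 0.05 in the old mice and -0.22, -0.28, 0.08 and -0.16 in the young ones, so that old 1 and old 3 lay above every young library and old 2 and old 4 did not.

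**Figure D4:**
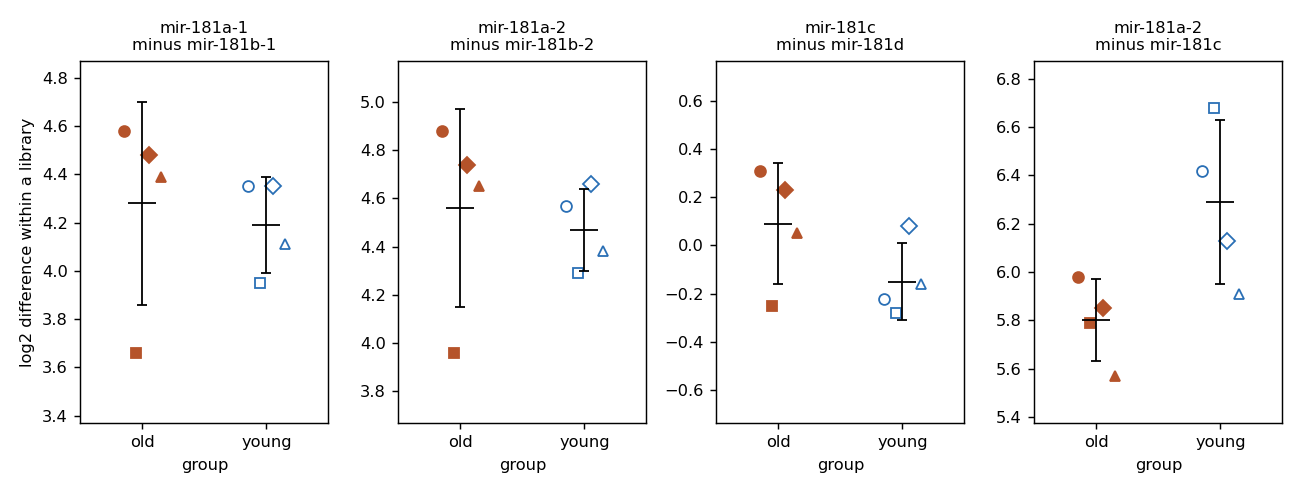
Log2 difference within a library (y axis, equal span in each panel) between named mir-181 precursors for old (filled) and young (open) mice, with marker shape for the mouse number and black bars for mean and SD of 4 libraries. Old 2 lies apart at 3.66 and 3.96 in the panels of mir-181a against mir-181b, and in the panel of mir-181a-2 against mir-181c the young values reach from 5.91 to 6.68 and the old ones from 5.57 to 5.98.

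The 6 precursors varied less between libraries than most. Their SDs over the 8 libraries were 0.39 for each mir-181a entry, 0.42 for mir-181c, 0.43 for mir-181d, 0.5 for mir-181b-2 and 0.52 for mir-181b-1, against a median of 0.64 over all 359 precursors and 2.07 for mir-431. Only 29 and 30 of the 359 precursors varied less than mir-181a-2 and mir-181a-1, while 109 varied less than mir-181b-1. The ranges from the lowest to the highest library were 1.07 to 1.5 on the log2 scale, against a median range of 1.92. The 6 also ranked high in level, and no test at matched level was made. Outside the family, precursors with a mean level above that of mir-181a-1 had SDs from 0.42 (mir-191) to 0.58 (mir-99b). Somewhat lower in level, mir-378a and mir-27b had 0.25 and 0.4, while mir-351 and mir-127 had 0.97 and 1.86. Near the mir-181b level, let-7i and mir-744 had 0.43 and 0.46, while mir-133a-1 had 0.93. SDs of this size were thus not particular to the family. The values share their scaling within a library, and mir-3107, an entry inside the mir-486 hairpin on the other strand, held 19.1% to 42.8% of the summed linear values. The 6 mir-181 entries together held 3.1% of that sum in young 1 and 9.71% in young 2, and 4.65% to 5.31% in the old libraries. These figures count both copies of miR-181a and of miR-181b. mir-181a-2 alone held 1.57% in young 1 and 4.89% in young 2. mir-486 itself lay between 20.29 and 22.11 on the log2 scale. The summed values were also equalised after dropping mir-3107 and mir-486, a setting added after seeing the data. Old minus young was then -0.05 for each mir-181a entry (-0.245 as deposited) and -0.14 for mir-181b-1 (-0.33 as deposited). It was 0.44 for mir-181c (0.24 as deposited) and 0.21 for mir-181d (0.01 as deposited). Beyond this rescaling, the part of mir-486 in the family's variation was not tested.

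**Figure D5:**
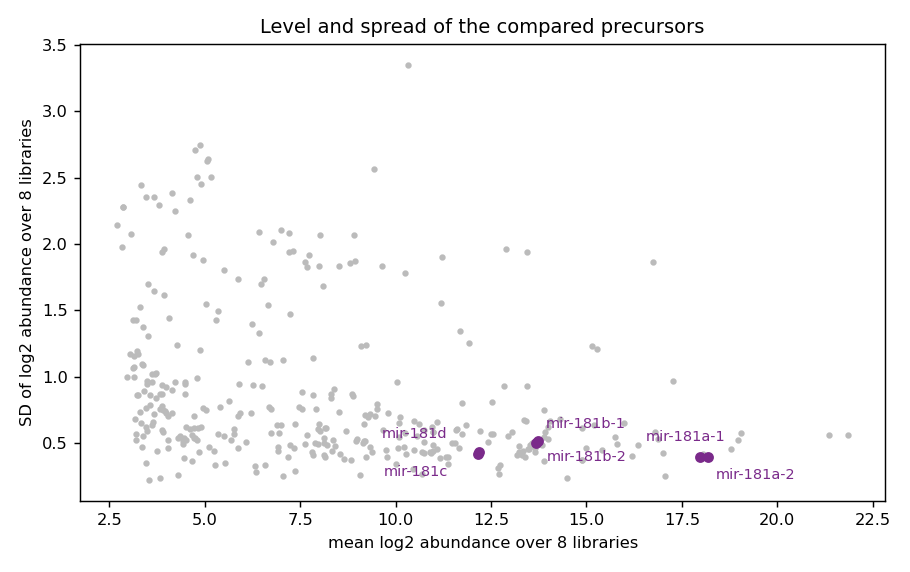
SD of log2 abundance over the 8 libraries (y axis) against mean log2 abundance (x axis) for the 359 compared precursors in grey, with the 6 mir-181 precursors in purple. The mir-181 points lie between 0.39 and 0.52 on the SD axis, under the median of 0.64 over all 359.

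The precursors whose values ran most nearly parallel to each locus were found by the same SD. For the chromosome 1 locus, taken as the mean of its members, these were let-7i (SD 0.126), mir-744 (SD 0.178) and mir-98 (SD 0.21), against a median of 0.68 over the precursors outside the family. The chromosome 2 locus had the same 3, with SDs of 0.123, 0.183 and 0.199, since its values repeat those of chromosome 1. let-7i, a member of the let-7 family of differentiation-linked miRNAs, measured 13.52, 13.3, 13.52 and 13.85 in the old mice and 13.14, 14.44, 13.43 and 14.08 in the young ones, with young 2 highest as for miR-181a. For mir-181c and mir-181d the nearest were mir-107 (SD 0.0802), mir-106b (SD 0.136) and mir-199b (SD 0.138), against a median of 0.563. mir-107 measured 9.12, 9.24, 9.29 and 10.07 in the old mice and 8.68, 9.64, 8.88 and 9.8 in the young ones. As for mir-181c, old 4 was highest and young 1 lowest. Much of the table shifted in a like way. Over compared precursors above 0 in every library, the median log2 deviation from their own means was lowest in young 1 (-0.33). It was 0.37 in old 4 and highest in young 4 (0.58). The nearest precursors were picked as the smallest SDs of all, and the part of this common shift in their likeness was not tested. None of these 6 precursors passed between the ages (limma, adjusted p = 0.995 for each).

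The miRNAs of muscle and of myoblast differentiation, the program in which miR-181 has been placed, gave no call between the ages either. Of 11 listed muscle precursors, 7 were compared, 4 higher and 3 lower in old libraries with a median of 0.13, and 0 passed. The mir-1 and mir-208a entries were not among the 7. Of 25 regulators of myoblast differentiation 23 were compared, 17 higher and 6 lower with a median of 0.04, and 0 passed, against 0.0% of all precursors. mir-206, found almost only in skeletal muscle, averaged 15.9 ± 0.17 in old against 15.72 ± 0.72 in young mice. mir-486, from an intron of the ankyrin gene Ank1, averaged 21.41 ± 0.28 and 21.28 ± 0.81 (SD, n = 4 each). mir-351, of the X-linked cluster with mir-322 and mir-503, averaged 17.11 ± 0.54 and 17.41 ± 1.35. mir-378a, from an intron of the metabolic regulator Ppargc1b, averaged 16.99 ± 0.34 and 17.14 ± 0.13.

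Markers of other cells that the cultures could hold were compared in the same way, and 0 members of any list passed in limma. Without mir-486, the 5 blood miRNAs summed to a log2 level of 3.05 to 4.47 in old and 1.97 to 4.32 in young libraries, with 3 of 5 listed at 0 in all. With mir-486, which muscle also makes, 2 of the 6 blood miRNAs were compared, both higher in old libraries. The 6 fibroblast and smooth muscle precursors summed to 15.36 to 15.84 in old and 14.58 to 15.65 in young libraries, and 5 of 5 compared had a higher mean in old. mir-143, a smooth muscle miRNA, was the highest at 15.2 ± 0.31 and 14.79 ± 0.54, and mir-214 was at 12.71 ± 0.54 and 12.26 ± 0.58. The 2 endothelial entries, mir-126a and mir-126b, summed to 4.41 to 5.51 and 4.13 to 6.28. The 7 epithelial precursors summed to 5.3 to 8.12 and 6.1 to 7.65, led by mir-205 at 5.94 ± 1.49 and 6.33 ± 0.75. The 10 neural ones summed to 10.72 to 11.11 and 10.82 to 11.64, led by mir-128-1 (10.27 ± 0.34 and 10.64 ± 0.09) and mir-128-2 (9.36 ± 0.36 and 9.68 ± 1.13), which are not confined to neurons. The part of other cells in the miR-181 levels was not tested, and in bulk libraries fewer cells of a type and less RNA per cell cannot be told apart.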

How the data were processed

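Per the labels, small RNA of myoblasts from old and young mice (4 libraries each) came from mirVana extracts and was read on a GAIIx instrument. BWA and the build mm10 are named in the submitters' processing notes. How reads were trimmed, counted or shared between precursors is not stated in the labels. Log2 values, rounded to 2 decimals and floored at 0, were deposited by the authors for 1181 precursors, and 400 of these are at 0 throughout. Their unit under the log is not stated. Columns were matched to the labels by letter and number.

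The deposited log2 values of the 359 precursors that reached a linear value of 10 in 4 or more libraries were fitted with limma 3.58.1 under R 4.3.3 (moderated variances, trended on the mean). Benjamini-Hochberg adjustment ran over all 359, with a threshold of 0.05. Two-sided exact permutation tests over 70 arrangements of the libraries cannot give a p below 0.0286. The titles number the samples, read here as mice, and say nothing of pools or separate cultures. The p-values therefore measure the spread between these libraries. Read numbers rest on precursor lengths from RefSeq (GRCm38.p6, the same build as mm10), which matched 1176 of 1181 precursors and all 359 compared; overlapping genes are from GENCODE M21. Of the 6 members, 6 had mature sequences and 5 a hairpin in the RefSeq table. Reads are not independent molecules. The fit was tested on simulated data with known changes. Other steps used scipy 1.17.1 and pandas 2.3.3 in Python 3.11.15, with figures from matplotlib 3.10.9.

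The members, the lists and the tests were chosen with earlier results of these data known. Precursors outside the family were named by rule: per locus the 3 with the smallest SD of the log2 difference, up to 2 of the most abundant compared members of each list, and mir-431. Defining blood markers, mir-133a-1 and mir-3107 were added as checks. Outside these rules, mir-99b, mir-191, mir-27b and mir-127 were named as examples of spread. Alternatives were a pseudocount of 10, other filters, rescalings and variance models, the replicate number as a block, averaged copies, and libraries left out.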

Additional observations from a re-analysis of the deposited data

How the results depend on the processing

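Of the 6 mir-181 precursors 0 passed an adjusted p of 0.05 in limma under any of the 19 alternatives, with a smallest adjusted p of 0.715. Over all precursors the count was 0 under 18 of them and 33 without both old 3 and young 4, libraries chosen on other miRNAs' values. At an unadjusted p under 0.05 the count over all ran from 0 to 59. Leaving out 1 library gave 0 at an adjusted p under 0.05 each time, over the 6 and over all. The unadjusted count over all was then 1 (without old 2) to 36 (without old 3). The median over the 6 ran from -0.4 (without young 1) to -0.03 (without young 2). The sign of both mir-181a and both mir-181b entries was negative and that of mir-181c positive under every alternative; mir-181d turned negative with quantile normalization (-0.0106) and, over libraries left out, ran from -0.162 (without young 1) to 0.195 (without young 4), with negative values also without old 4 (-0.159) and young 3 (-0.125). Equalising the summed values after dropping mir-3107 and mir-486, added after seeing the data, moved the median of all precursors from -0.05 to 0.14. The mir-181a entries were then at -0.05 and mir-181c at 0.44 (limma, unadjusted p = 0.0394, adjusted p = 0.918). Quantile normalization, a planned setting, gave -0.03 for mir-181a-1 and -0.05 for mir-181a-2, but -0.38 for mir-181b-1. With median-ratio rescaling, also planned, each mir-181a entry was at -0.21. The SE of mir-181c was 0.34 as deposited, 0.18 there and 0.17 with median-ratio rescaling. With the replicate number as a block 0 of 359 passed and 39 had an unadjusted p under 0.05, against 4 without it. Deviations of same-numbered libraries correlated from -0.0637 to 0.662 and 3 of 4 libraries in each group correlated best with their own number, and the labels give no pairing. With 4 libraries a group, the intervals given for each member still hold differences of either sign.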
